A study of Homo sapiens with 6 samples.

Results

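The genes described here are 10 cell surface antigens of multiple myeloma that are, or have been tried as, targets of antibodies and engineered T cells: CD38, SLAMF7, TNFRSF17 (BCMA), SDC1 (CD138), GPRC5D, FCRL5, TNFRSF13B (TACI), CD27, CD47 and CD48. Every transcript that the deposited annotation gives to one of these symbols was taken, which gave 55 of 215170 transcripts, and their levels were summed to 10 of 63677 genes. The samples were cultures of KMS27, an established human myeloma cell line that the labels place under plasma cells. The design compared 3 libraries labelled with HA-TAZ, an HA-tagged form of the transcriptional co-activator TAZ (gene WWTR1), with 3 libraries labelled wild type. No other genetic change, drug, dose or time is given for either group, and the promoter that drives the tagged gene and the number of clones are not given in the sources used here. The control columns of the deposited table carry a name that is in no label, so they were taken as the wild type libraries by elimination and are called control a, b and c. The letters HA stand in the titles of these control samples too.

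Plasma cells secrete antibody and keep a small set of surface proteins that tell them apart from other blood cells. CD38 is an ectoenzyme that consumes NAD, SLAMF7 and CD48 are receptors of the SLAM group that bind like molecules on neighbouring cells, and TNFRSF17 and TNFRSF13B are receptors for the survival ligands BAFF and APRIL. SDC1 carries heparan sulfate chains that hold growth factors at the cell surface, and CD47 signals to macrophages not to engulf the cell. TAZ binds no DNA itself and acts mostly through TEAD factors.

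RNA was depleted of ribosomal RNA, made into stranded libraries and sequenced in pairs on a NovaSeq. Levels were deposited as TPM, each transcript's share of its library corrected for its length. Read totals per library are not given by such values, so the depth of each library is unknown. WWTR1, the check of the labels, was at 293, 306 and 293 TPM in HA-TAZ 1, 2 and 3 and at 2.69, 2.22 and 1.69 TPM in control a, b and c. Nothing says that the libraries of a group came from separate cultures, so p-values measure only the spread between these libraries, which may be technical. Between 20534 and 21395 genes reached 1 TPM in the HA-TAZ libraries and between 23120 and 23807 in the controls. TPM was therefore divided by a median-of-ratios factor per library ("scaled TPM"), which left the median log2 fold change of all 22651 tested genes at -0.03. With TPM as deposited that median was -0.27, and 7.84% of the genes called were higher in HA-TAZ against 64.0% with scaled TPM. Protein-coding genes held 43.6%, 47.4% and 42.2% of TPM in HA-TAZ 1, 2 and 3. In control a, b and c they held 54.5%, 49.7% and 46.9%, so the ranges overlapped and control a was the highest. Which scaling is nearer the true levels was not tested.

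Of the 10 antigen genes, 8 had a mean of at least 1 TPM and could be tested, and 3 of these passed limma at a Benjamini-Hochberg adjusted p under 0.05, beside 7.29% of all genes tested (4.67% higher and 2.63% lower). SLAMF7 and CD47 rose in the HA-TAZ libraries and CD38 fell, with the limit for CD47 given below. The other 5 tested genes, TNFRSF17, SDC1, GPRC5D, FCRL5 and CD48, did not pass. The scaled levels of the groups did not overlap for 6 of the 8, 3 higher and 3 lower in HA-TAZ, beside 38.5% of all genes tested (20.2% higher and 18.3% lower). At an unadjusted p under 0.05 limma gave 5 of the 8, beside 30.7% of all genes. The median log2 fold change of the 8 was -0.02, next to -0.03 for all genes. The share of all genes called was higher in fits of genes more like these. With protein-coding genes only, 4 of the 8 passed limma beside 2746 of 11666 genes. With a minimum of 5 TPM, 3 of 7 passed limma beside 2240 of 12613.

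The control libraries gave an order of levels that runs from CD48 (150 ± 12.6 TPM, SD, n = 3) through SDC1 (87.7 ± 6.98) and TNFRSF17 (53.2 ± 2.51) to CD47 (33.6 ± 1.51) and CD38 (18.7 ± 0.651). GPRC5D, FCRL5 and SLAMF7 followed in the controls at 6.03 ± 0.450, 5.15 ± 0.451 and 3.93 ± 0.526 TPM. In that order the ranges of GPRC5D and FCRL5 overlapped, and no other neighbours did. In the HA-TAZ libraries SLAMF7, at 7.01 ± 0.670 TPM, stood above GPRC5D and FCRL5 in every library, whereas it stood below both in every control. TNFRSF13B and CD27 were the lowest in both groups, and their ranges overlapped in the HA-TAZ libraries. Over all 6 libraries CD48 was above 98.8% of the genes detected, and CD27 above 29.7%.

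**Figure D1:**
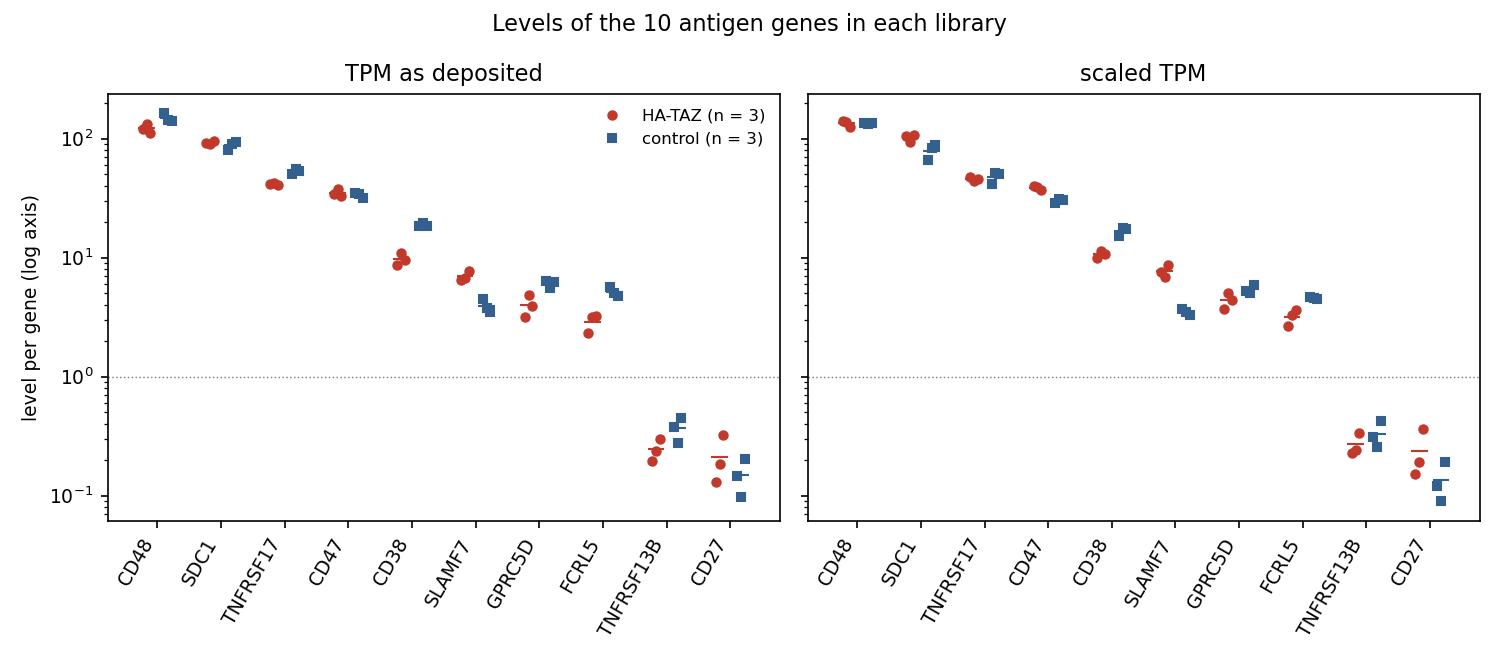
Level of each of the 10 antigen genes in each library on a log axis, as deposited TPM (left) and scaled TPM (right); circles are HA-TAZ libraries, squares are controls, short bars are group means, and the dotted line marks 1 TPM. CD38 lies lower and SLAMF7 higher in all 3 HA-TAZ libraries on both scales, and TNFRSF13B and CD27 lie under 1 TPM in every library.

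CD38 (ENSG00000004468) turns NAD into cyclic ADP-ribose and ADP-ribose outside the cell and is the target of daratumumab and isatuximab. Its summed level was 8.62, 10.98 and 9.59 TPM in HA-TAZ 1, 2 and 3 and 18.5, 19.5 and 18.3 TPM in control a, b and c. Every control stood above every HA-TAZ library, on this scale and on the scaled one. Scaled levels were 10.7 ± 0.702 against 16.8 ± 1.37 (SD, n = 3 each), so that the controls were 1.57-fold higher. The log2 fold change was -0.61 (SE 0.08, 95% interval -0.81 to -0.40, limma adjusted p = 0.0226). The call was lost in the limma fits without HA-TAZ 1, 2 or 3 (adjusted p = 0.0881, 0.0692 and 0.0742) and without control b or c (0.0754 and 0.0584), while the log2 fold change stayed between -0.67 and -0.55 whichever library was left out. In bulk RNA, fewer cells that express a gene and less RNA of it per cell cannot be told apart.

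The sequence before CD38 is shown since CD38 was the antigen that fell, and motifs were searched in its RefSeq promoter window and in those of the other antigens. These are the 200 bases upstream of exon 1 of CD38-201 as GENCODE release 29 places it, read from the RefSeq window on the plus strand, chr4:15778078-15778277 of GRCh38.p14, with each CG dinucleotide in capitals:
CD38: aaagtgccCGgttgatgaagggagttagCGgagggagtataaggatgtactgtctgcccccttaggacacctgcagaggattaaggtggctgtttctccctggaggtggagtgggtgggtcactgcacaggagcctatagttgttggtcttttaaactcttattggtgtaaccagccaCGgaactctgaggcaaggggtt
The RefSeq start lies 50 bases further downstream, inside that exon. The 250 bases before the RefSeq start held 3 CG dinucleotides in CD38, and between 2 and 5 in CD27, FCRL5, GPRC5D, CD48 and TNFRSF13B, whereas those of SDC1 held 21 and 23 before its 2 starts and those of CD47 held 39. A low count was thus shared by most of these antigens, whether or not they passed the test. RefSeq windows of 300 bases were matched for 8 of the 10 antigens, all but SLAMF7 and TNFRSF17. None of the 8 held GGAATG, the core motif of TEAD factors, on either strand, and 14.03% of 35116 promoter windows did. None of the 8 held the letters GAAA, 2 bases of any kind and GAAA on either strand, the core of an interferon response element, and 3.57% of the windows did. That says only that these letters are not in these windows.

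CD38 was made up of 5 transcripts, all detected. CD38-201 (ENST00000226279.3, 8 exons) is the form that codes for the full enzyme. CD38-201 had 4.25, 4.42 and 4.07 TPM in HA-TAZ 1, 2 and 3, and 9.45, 8.07 and 7.55 TPM in the controls, with no overlap. Its share of CD38 was 44.0% ± 4.76 and 44.6% ± 5.70 (SD, n = 3 each, exact two-sided permutation p = 0.7), a difference smaller than the spread within either group. The retained-intron form CD38-205 (ENST00000511430.1) was at 2.43, 2.21 and 2.44 TPM against 4.96, 4.94 and 4.46 TPM, again without overlap. The retained-intron form CD38-203 (ENST00000506191.1) was at 1.24, 1.37 and 1.16 TPM against 3.00, 4.41 and 3.38 TPM. CD38-203 took 12.96% ± 1.25 of the gene in HA-TAZ and 19.1% ± 3.22 in the controls, also without overlap (exact two-sided permutation p = 0.1, the smallest that 3 against 3 allows). CD38-202 (ENST00000502843.1), a form subject to nonsense-mediated decay, and CD38-204 (ENST00000510674.1) overlapped between the groups, and CD38-204 was listed at 0 in control a and control b.

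The authors' deposited table gives a q under 0.05 for 3 of the 5 CD38 transcripts, all lower in HA-TAZ. For CD38-201 the authors' deposited table lists an effect of -0.445 (SE 0.0644, natural log, q = 2.15e-09), at a mean that corresponds to about 2177 estimated reads. For CD38-205 the authors' deposited table lists -0.482 (SE 0.107, q = 0.000533), and for CD38-203 it lists -0.823 (SE 0.257, q = 0.0302).

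SLAMF7 (ENSG00000026751), the target of elotuzumab, is a receptor that binds a second SLAMF7 molecule on a neighbouring cell. Its level was 6.55, 6.70 and 7.78 TPM in HA-TAZ 1, 2 and 3 and 4.51, 3.78 and 3.50 TPM in control a, b and c. All 3 HA-TAZ libraries were above all 3 controls on both scales. Scaled levels were 7.74 ± 0.918 against 3.50 ± 0.216 (SD, n = 3 each), a ratio of 2.21. The log2 fold change was 0.95 (SE 0.10, 95% interval 0.70 to 1.21, limma adjusted p = 0.0128). The limma call was lost without HA-TAZ 1 (adjusted p = 0.0650) and without control b (0.0576), where the log2 fold change was 0.98 and 0.95.

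SLAMF7 transcripts differ in the exons they hold. The sequences below, from GENCODE release 29 on GRCh38, show the junctions that tell 3 of them apart, 5′ to 3′ on the plus strand of chromosome 1, with exon 5 of SLAMF7-203 (104 bases, chr1:160751345-160751448) in capitals:
SLAMF7-203: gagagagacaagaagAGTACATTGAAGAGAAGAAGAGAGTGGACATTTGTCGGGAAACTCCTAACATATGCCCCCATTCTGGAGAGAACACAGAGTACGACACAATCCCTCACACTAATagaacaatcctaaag
SLAMF7-201: gagagagacaagaagagaacaatcctaaag
SLAMF7-205: tgctgcatgtctacgagaacaatcctaaag
SLAMF7-201 joins the exon before it directly to the one after it, and SLAMF7-205 skips exons 3 to 5 of SLAMF7-203, of 273, 120 and 104 bases. The deposited identifiers carry older version numbers of these 3 transcripts, so the annotated ends may differ.

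SLAMF7-203 (ENST00000368043.3, 7 exons) is the long coding form. SLAMF7-203 had 3.90, 3.33 and 3.57 TPM in HA-TAZ 1, 2 and 3, and 0.696, 1.76 and 1.93 TPM in the controls, with no overlap. Its share of SLAMF7 was 59.6%, 49.6% and 45.9% against 15.4%, 46.5% and 55.1%, so control a stood apart from all other libraries. The difference in mean share was 12.7 percentage points (exact two-sided permutation p = 0.5) and 0.906 points without control a. In control a the form SLAMF7-202 was listed at 34.1% of the gene.

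SLAMF7-205 (ENST00000444090.2), without the skipped exons shown above, was at 0.445, 1.13 and 1.15 TPM in HA-TAZ and at 0.144, 0 and 0.209 TPM in the controls. Its share of SLAMF7 was 12.8% ± 5.34 against 3.06% ± 2.99 without overlap, though HA-TAZ 1 at 6.79% was close to control c at 5.98%. SLAMF7-201 (ENST00000359331.4) and the retained-intron form SLAMF7-208 (ENST00000484221.1) went the other way in share. SLAMF7-201 took 8.23% ± 2.55 of the gene in HA-TAZ and 12.2% ± 0.928 in the controls, and SLAMF7-208 took 7.67% ± 1.19 and 16.0% ± 0.605. Each of these 3 shares gave an exact two-sided permutation p of 0.1. In level, SLAMF7-201 and SLAMF7-208 overlapped between the groups, both as deposited and scaled. Mean scaled levels in HA-TAZ and the controls were 0.633 and 0.425 for SLAMF7-201 and 0.582 and 0.555 for SLAMF7-208. Their lower shares thus went with no lower mean scaled level of these forms. Coding transcripts together made up 86.9%, 83.9% and 82.4% of SLAMF7 in HA-TAZ and 77.7%, 74.8% and 78.5% in the controls (exact two-sided permutation p = 0.1), again without overlap. SLAMF7-209, SLAMF7-206 and SLAMF7-202 overlapped between the groups in share.

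The authors' deposited table has 7 of the 10 SLAMF7 transcripts, and 1 with a q under 0.05: SLAMF7-203, with an effect of 1.22 (SE 0.366, natural log, q = 0.0218). For SLAMF7-205 the authors' deposited table lists 2.72 (SE 1.02, q = 0.0962), at a mean that corresponds to only about 13 estimated reads.

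CD48 (ENSG00000117091), a GPI-anchored relative of SLAMF7 that binds CD2 and CD244, was the most abundant of the antigens. Its level was 122, 133 and 111 TPM in HA-TAZ and 164, 143 and 142 TPM in the controls, so that the deposited values did not overlap. Scaled levels were 134 ± 8.41 and 134 ± 2.25 (SD, n = 3 each) and overlapped. On the scaled levels the log2 fold change was 0.00 (95% interval -0.14 to 0.14, limma adjusted p = 0.977) and turned to -0.30 (adjusted p = 0.0734) with TPM as deposited. The less abundant of its 2 transcripts, CD48-201 (ENST00000368045.3), took 3.42% ± 0.0700 of CD48 in HA-TAZ and 4.59% ± 0.126 in the controls, without overlap. CD48-202 (ENST00000368046.3) held the rest.

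TNFRSF17 (ENSG00000048462), the BAFF and APRIL receptor that is the target of BCMA-directed CAR T cells and teclistamab, was at 41.2, 42.5 and 41.0 TPM in HA-TAZ and at 50.6, 55.6 and 53.4 TPM in the controls. The deposited values were lower in all HA-TAZ libraries, whereas the scaled ones overlapped, at 45.8 ± 1.83 and 47.8 ± 5.16 (SD, n = 3 each). Its log2 fold change was -0.05 (SE 0.09, 95% interval -0.27 to 0.16, limma adjusted p = 0.714). With TPM as deposited it was -0.35 and passed limma (adjusted p = 0.0311), so the call for TNFRSF17 rested on the scaling. TNFRSF17-201 (ENST00000053243.1) made up 90.9% ± 1.01 of the gene in HA-TAZ and 92.4% ± 0.936 in the controls.

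TNFRSF13B (ENSG00000240505), the second receptor of the pair, was at 0.196, 0.236 and 0.301 TPM in HA-TAZ and 0.378, 0.278 and 0.448 TPM in the controls. CD27 (ENSG00000139193), a TNF receptor of memory B cells and plasma cells, was at 0.131, 0.185 and 0.324 TPM against 0.147, 0.0975 and 0.204 TPM. Both genes overlapped between the groups and lay under the minimum for the test. Without that minimum limma gave TNFRSF13B an adjusted p of 0.614 and CD27 one of 0.462.

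SDC1 (ENSG00000115884), the heparan sulfate proteoglycan by which plasma cells are commonly recognised, was at 91.9, 89.7 and 94.95 TPM in HA-TAZ and 79.8, 90.1 and 93.1 TPM in the controls. The deposited ranges overlapped. Scaled levels were 102 ± 7.87 against 78.9 ± 11.5 (SD, n = 3 each) and did not overlap, with control a the lowest at 66.0. Its log2 fold change of 0.37 (SE 0.12, 95% interval 0.07 to 0.67) did not pass limma (adjusted p = 0.107). For its main transcript SDC1-201 (ENST00000254351.4), at 69.7, 68.5 and 69.0 TPM against 55.1, 66.4 and 64.2 TPM, the authors' deposited table lists an effect of 0.340 (SE 0.0974, q = 0.0141).

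GPRC5D (ENSG00000111291), an orphan receptor of plasma cells and hair follicles and the target of talquetamab, was at 3.19, 4.86 and 3.94 TPM in HA-TAZ and 6.36, 5.52 and 6.22 TPM in the controls. Scaled levels were 4.38 ± 0.672 and 5.40 ± 0.429 (SD, n = 3 each), and the highest HA-TAZ library, at 5.02, was just under the lowest control, at 5.06. The log2 fold change of -0.26 (SE 0.12, 95% interval -0.55 to 0.04) did not pass limma (adjusted p = 0.205). GPRC5D-203 (ENST00000541128.1) made up 53.1% ± 15.1 and 52.2% ± 7.44 of the gene.

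FCRL5 (ENSG00000143297), an Fc receptor-like protein and the target of cevostamab, was at 2.31, 3.19 and 3.20 TPM in HA-TAZ and 5.64, 5.04 and 4.76 TPM in the controls. The groups did not overlap on either scale. FCRL5 had a log2 fold change of -0.43 (SE 0.11, 95% interval -0.69 to -0.16, limma adjusted p = 0.0684). FCRL5 passed limma with TPM as deposited (-0.66, adjusted p = 0.0367) and when only protein-coding genes were fitted (-0.48, adjusted p = 0.0144).

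Nearly all of the FCRL5 signal came from a transcript with no coding sequence in GENCODE. FCRL5-208 (ENST00000497286.1) made up 94.8% ± 4.25 of FCRL5 in HA-TAZ and 95.7% ± 3.15 in the controls, and coding transcripts 0.612% ± 0.295 and 0.935% ± 0.573. On GRCh38 FCRL5-208 begins 23846 bases downstream of the RefSeq start of FCRL5 on chromosome 1. Of its 9 exons, 7 are identical to exons 10 to 16 of the 17 exons of FCRL5-201. The other exons of FCRL5-208 are shared in part or almost wholly. Its first exon, of 1053 bases, contains exon 9 of FCRL5-201, of 279 bases. Its last exon, of 2387 bases, lies inside the last exon of FCRL5-201, of 2388 bases. FCRL5-208 was at 2.27, 2.87 and 3.07 TPM in HA-TAZ and 5.44, 4.65 and 4.68 TPM in the controls. For FCRL5-208 the authors' deposited table lists an effect of -0.364 (SE 0.0780, natural log, q = 0.000264). The summed FCRL5 level is thus almost wholly that assigned to a noncoding form, and the gene sum does not show from which form reads of the shared exons came. The full-length FCRL5-201 averaged 0.00071 TPM in HA-TAZ and was listed at 0 in all controls.

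CD47 (ENSG00000196776), the ligand of SIRPA on macrophages, was at 34.4, 37.6 and 32.8 TPM in HA-TAZ and 34.9, 34.0 and 32.0 TPM in the controls. The deposited values overlapped, whereas scaled levels of 38.5 ± 1.45 and 30.1 ± 1.14 (SD, n = 3 each) did not. The log2 fold change was 0.35 (SE 0.05, 95% interval 0.22 to 0.47, limma adjusted p = 0.0271). CD47 passed limma with scaled TPM but not with TPM as deposited (0.05, adjusted p = 0.599) or without the intensity trend (0.35, adjusted p = 0.0541). It was also lost without any one of HA-TAZ 1, 2 and 3 (adjusted p = 0.103, 0.0902 and 0.0638) and of control a, b and c (0.0635, 0.0726 and 0.0608).

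The plot of changes by scaling sets the 8 tested genes side by side.

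**Figure D2:**
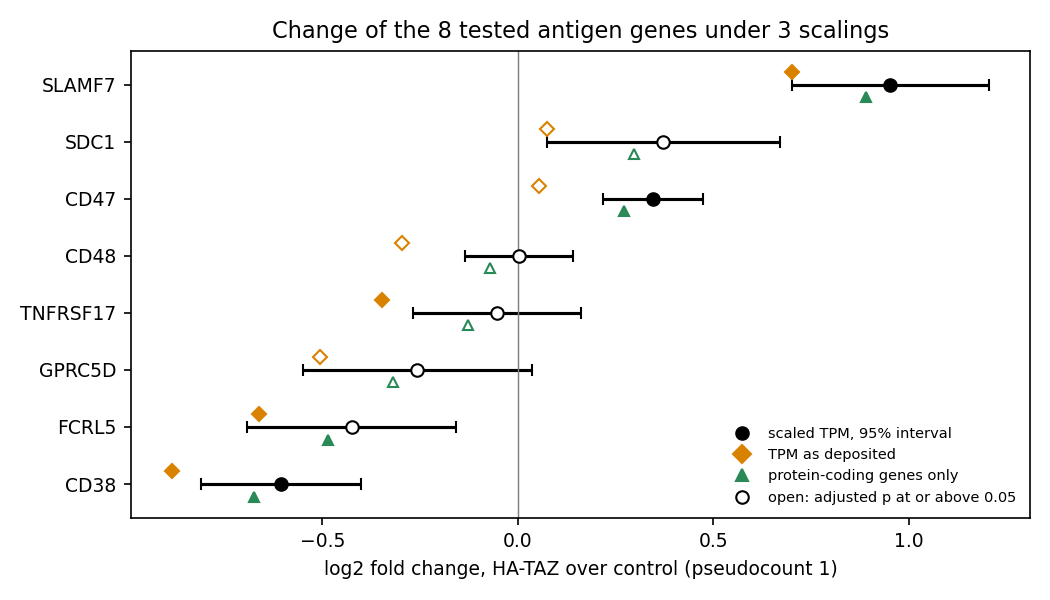
Log2 fold change of the 8 tested antigen genes, HA-TAZ over control, with scaled TPM (circles with 95% intervals), TPM as deposited (diamonds) and protein-coding genes only (triangles); filled symbols have a limma adjusted p under 0.05. SLAMF7 and CD38 are filled under all 3, CD47 loses its fill with TPM as deposited, TNFRSF17 is filled only there, and FCRL5 is filled in both alternatives.

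CD47 makes cytoplasmic tails of different length by skipping or keeping small exons near its end. The coding ends of 2 forms are shown since the share of CD47-202 did not overlap between the groups and that of CD47-201 did. They run 5′ to 3′ on the minus strand of chromosome 3 (GRCh38, GENCODE release 29). All 32 bases of exon 8 are in lower case and the coding bases after it in capitals:
CD47-201: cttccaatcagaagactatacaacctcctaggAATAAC
CD47-202: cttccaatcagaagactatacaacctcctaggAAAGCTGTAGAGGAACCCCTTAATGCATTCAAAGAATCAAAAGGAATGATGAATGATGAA
CD47-202 holds exon 9 of 25 bases (chr3:108050578-108050602) and exon 10 of 33 bases (chr3:108049619-108049651) before its last exon. CD47-201 goes from exon 8 directly to a last exon of 4199 bases, whereas the last exon of CD47-202 has 212.

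CD47-202 (ENST00000361309.5), a long-tail form, was at 15.4, 16.95 and 15.5 TPM in HA-TAZ and 8.16, 11.4 and 11.99 TPM in the controls. Its share of CD47 was 44.9%, 45.1% and 47.2% in HA-TAZ and 23.4%, 33.5% and 37.5% in the controls, a difference of 14.3 percentage points (exact two-sided permutation p = 0.1). No library of one group reached the other, and control a had the lowest share. CD47-201 (ENST00000355354.7), the short-tail form, had 25.4% ± 0.608 and 27.2% ± 1.80 (exact two-sided permutation p = 0.3), with overlapping ranges. CD47-203 (ENST00000398258.3) took 13.1% ± 2.18 in HA-TAZ and 20.8% ± 3.09 in the controls, without overlap. It holds the same exons of 25 and 33 bases as CD47-202, yet its share was lower in HA-TAZ. The 14.3 points of CD47-202 are therefore not the change of all forms with these exons. The retained-intron form CD47-204 (ENST00000471694.1) took 5.83% ± 0.825 in HA-TAZ and 8.22% ± 1.18 in the controls, also without overlap. For CD47-202 the authors' deposited table lists an effect of 0.654 (SE 0.154, natural log, q = 0.00130) and for CD47-201 one of 0.197 (SE 0.0612, q = 0.0284).

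**Figure D3:**
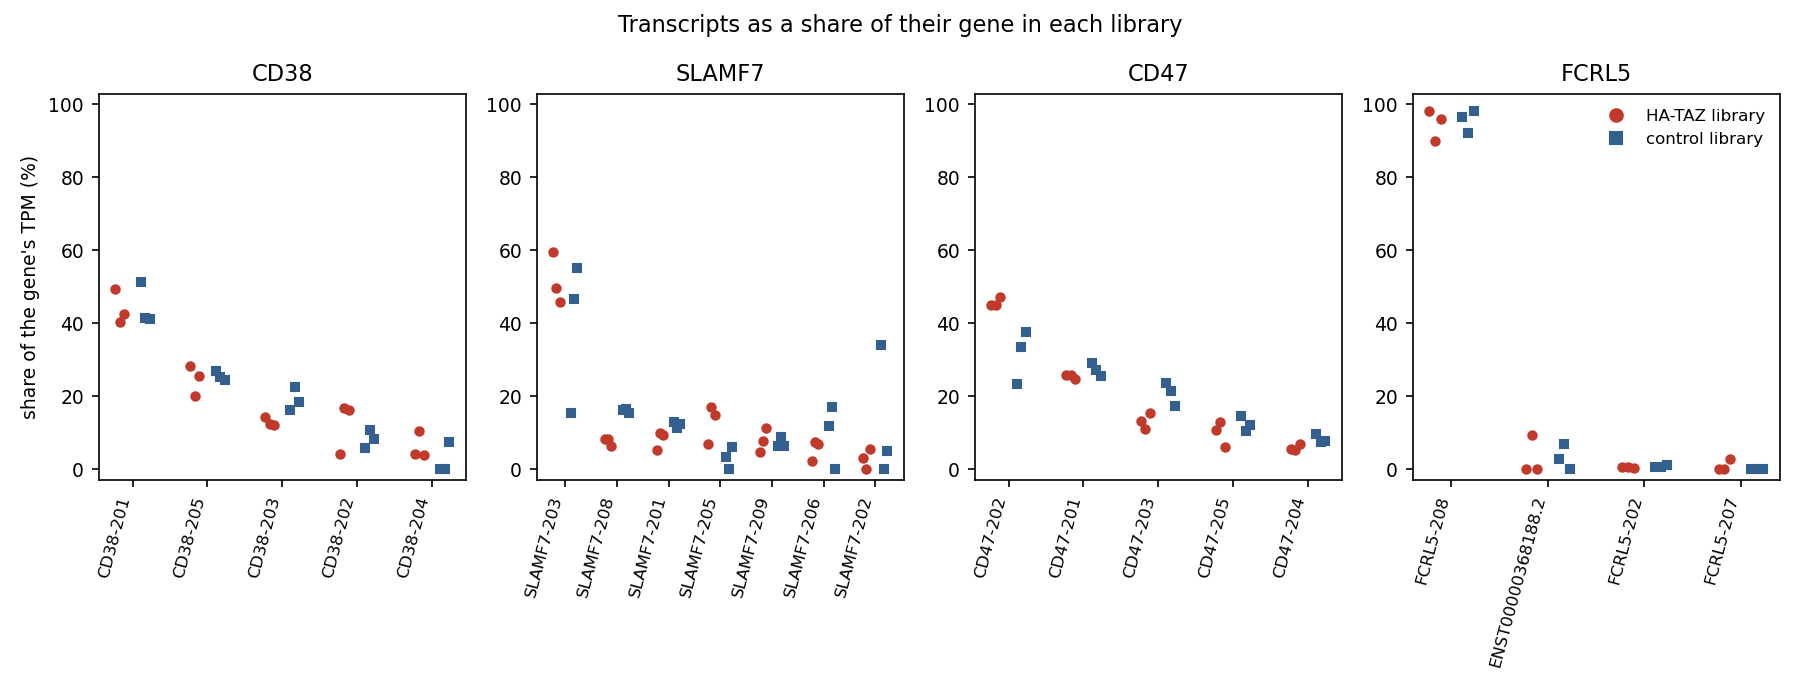
Share of each transcript in the summed TPM of CD38, SLAMF7, CD47 and FCRL5, in percent, with 1 point per library (circles HA-TAZ, squares control). CD47-202 lies at 44.9% to 47.2% in HA-TAZ and at 23.4% to 37.5% in the controls, SLAMF7-203 is at 15.4% in control a alone, and FCRL5-208 is above 90% in every library.

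Shares were compared for 35 transcripts of the antigens with a mean of at least 0.1 TPM, and 9 of them (25.7%) did not overlap between the groups, beside 19% of the transcripts of all genes with several, taken from the same minimum. The lowest Benjamini-Hochberg adjusted value over the 35 exact permutation tests was 0.389, so no share passed. The shares of CD48-201, CD47-203 and CD47-204 were singled out after their values were seen. In the limma fit of 57448 single transcripts, where 0.564% passed, 0 of the 23 antigen transcripts tested passed and 9 had an unadjusted p under 0.05, beside 24.3% of the 57448. With a minimum of 5 TPM 2 of 9 passed limma, CD38-201 (lower) and CD47-202 (higher), beside 11.9% of all 16904 transcripts in that fit. Of 36 antigen transcripts with statistics in the authors' deposited table, 8 have a q under 0.05, 4 higher and 4 lower in HA-TAZ, beside 5.68% of all transcripts there (4.08% higher and 1.6% lower).

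Of 105 other genes in lists of partners, relatives and other surface antigens, 61 were tested, 7 rose and 2 fell by limma, beside 4.67% and 2.63% of all genes tested, with a median log2 fold change of 0.07. The change next to CD27 was in its ligand. CD70, which signals through CD27 and is itself an antibody and CAR T target, was at 66.2, 67.3 and 69.1 TPM in HA-TAZ and 34.8, 33.9 and 34.3 TPM in the controls. The groups were far apart, and CD70 rose by a log2 fold change of 1.25 (SE 0.07, limma adjusted p = 0.00215), while CD27 stayed under 1 TPM in every library. CD70 was called under all 14 alternatives run.

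Among the SLAM receptors and their adaptors 4 of 12 genes were tested and 1 fell. LY9, a SLAM receptor, was at 15.3, 18.0 and 15.5 TPM in HA-TAZ and 27.1, 23.3 and 22.9 TPM in the controls (log2 fold change -0.27, limma adjusted p = 0.0408). So 1 relative of SLAMF7 was lower where SLAMF7 was higher. LY9 lost the limma call without any one of HA-TAZ 1, 2 and 3 (adjusted p = 0.139, 0.0915 and 0.109) and of control a, b and c (0.0923, 0.09998 and 0.0760), without a minimum level (0.0611) and without the trend (0.0653). The kinase FYN, the most abundant of this list, had a log2 fold change of -0.07 (limma adjusted p = 0.288).

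Of the BAFF and APRIL system 5 of 8 genes were tested and 0 passed limma, with TRAF3, a brake on the pathway of these receptors, at 55.7 ± 8.68 and 79.1 ± 12.2 TPM (SD, n = 3 each; log2 fold change -0.20, adjusted p = 0.201). Of gamma-secretase, the protease that cuts TNFRSF17 from the cell surface, 5 of 6 genes were tested and 0 passed limma. Its subunit NCSTN had a log2 fold change of -0.08 (limma adjusted p = 0.710). PSENEN and APH1A, further subunits, are named after their values were seen: their scaled levels were higher in all HA-TAZ libraries, with log2 fold changes of 0.65 and 0.42 (limma adjusted p = 0.0683 and 0.0869). Of the ligands, TNFSF13B (BAFF) averaged 1.08 and 1.04 TPM, and TNFSF13 (APRIL), under the minimum for the test, 0.764 and 0.707 TPM.

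A list of 12 genes around CD38 held NAD and adenosine enzymes, some at the cell surface and some inside the cell, and the adhesion molecule PECAM1. In this list 6 of 12 were tested and 0 passed limma. NAMPT, the rate-limiting enzyme of NAD salvage, had a log2 fold change of 0.24 (limma adjusted p = 0.0931). Among the other syndecans, their adaptor and the enzymes that make or cut heparan sulfate, 14 of 17 were tested and 1 rose. This was HS6ST1, a heparan sulfate sulfotransferase, at 9.28, 8.94 and 10.2 TPM against 7.50, 6.66 and 6.73 TPM (log2 fold change 0.66, limma adjusted p = 0.0224). The call for HS6ST1 was lost without HA-TAZ 1 or 3 (limma adjusted p = 0.0960 and 0.0671) and without control a, b or c (0.0631, 0.0760 and 0.0554). SDCBP, the adaptor that binds syndecan tails, had a log2 fold change of 0.16 (limma adjusted p = 0.188). Of the partners of CD47 and complement regulators 6 of 9 were tested and 0 passed limma, with CALR, an engulfment signal that CD47 counters, at a log2 fold change of 0.13 (adjusted p = 0.166). Of the FCRL family 3 of 7 were tested and 0 passed limma, with FCRL3 at -0.04 (adjusted p = 0.860). The 3 relatives of GPRC5D were all under 1 TPM on average.

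Other antigens under study for antibodies and engineered cells made up a list of 28 genes, of which 16 were tested, 6 rose and 1 fell, beside 4.67% and 2.63% of all genes tested, with a median log2 fold change of 0.31 next to -0.03 for all genes. The list was chosen with earlier results of these data known, and its count is a description with no test of the list. ICAM1, an adhesion molecule bound by integrins of lymphocytes, was at 70.5, 72.6 and 71.0 TPM in HA-TAZ and 16.9, 17.5 and 15.8 TPM in the controls (log2 fold change 2.32, limma adjusted p = 0.000255). CD74, the invariant chain of MHC class II, was at 383, 408 and 369 TPM against 276, 241 and 233 TPM (0.93, limma adjusted p = 0.00138). Both rose without overlap, as did CD70. CD44, the hyaluronan receptor, was at 33.3, 38.2 and 30.9 TPM against 27.5, 25.6 and 22.8 TPM (0.71, limma adjusted p = 0.00968), and lost the limma call with TPM as deposited (adjusted p = 0.0507) and without HA-TAZ 1 (0.0587) or 2 (0.0511).

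The remaining calls of that list are named after their values were seen. MUC1, a membrane mucin, had a log2 fold change of 2.25 (limma adjusted p = 0.0114; 0.0617 without HA-TAZ 1 and 0.0531 without HA-TAZ 3). CD200, an inhibitory ligand, had one of 0.57 (limma adjusted p = 0.0309; 0.139 with TPM as deposited), and IL6R, the receptor of the myeloma growth factor IL-6, one of -0.43 (limma adjusted p = 0.0331). CD200 lost its limma call without HA-TAZ 1, 2 or 3 or control a or b (adjusted p = 0.115, 0.0885, 0.0860, 0.0581 and 0.0769) and without a minimum level (0.0547). IL6R lost its limma call without any one of HA-TAZ 1, 2 and 3 (adjusted p = 0.0688, 0.0973 and 0.0889) and of control a, b and c (0.0687, 0.0854 and 0.0671), without a minimum level (0.0587) and without the trend (0.0550).

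**Figure D4:**
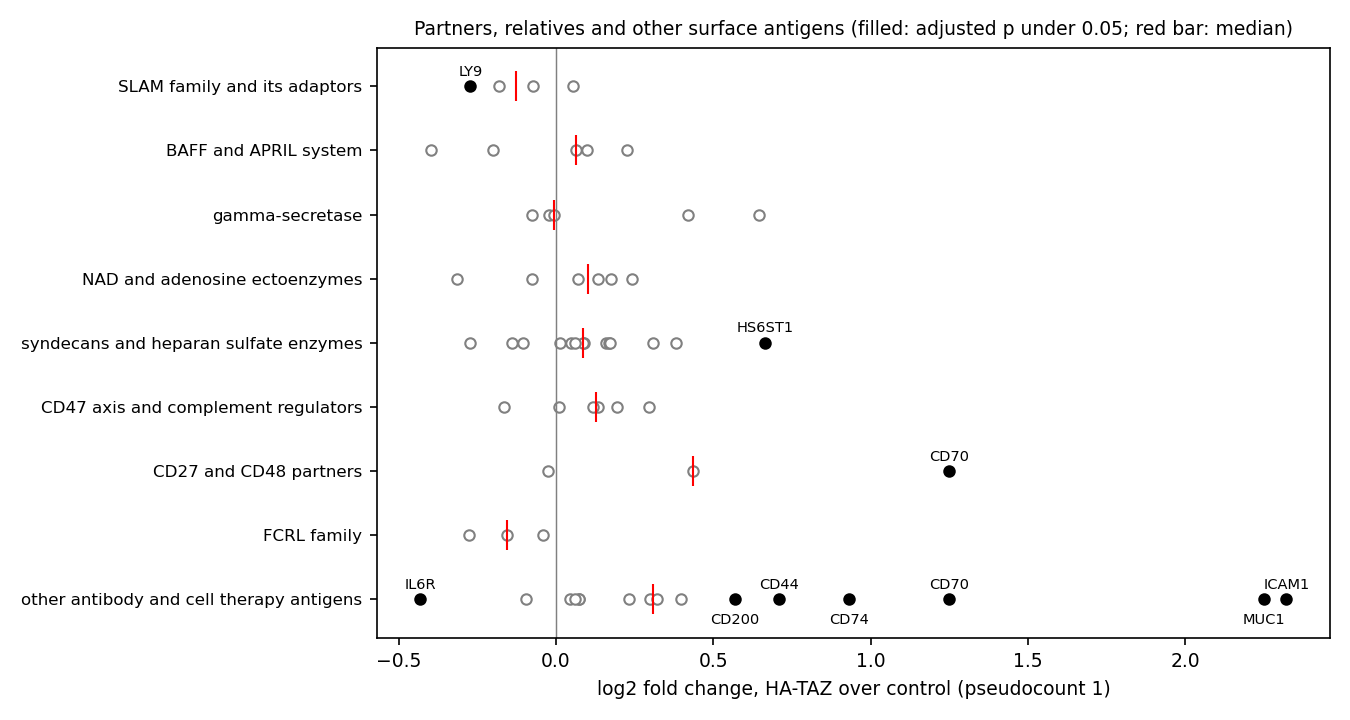
Log2 fold change, HA-TAZ over control, of each tested gene in 9 lists of partners, relatives and other antigens; filled points passed limma at an adjusted p under 0.05 and are named, and red bars are list medians. ICAM1 (2.32), MUC1 (2.25) and CD70 (1.25) lie farthest to the right, and LY9 (-0.27) and IL6R (-0.43) are the named points left of 0.

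The genes whose pattern over the 6 libraries was most like that of CD38 were AC022201.4 (root mean square difference 0.0581 on the centred log2 scale) and APOBEC3B-AS1, listed under 2 gene identifiers with the same values (0.0608). For SLAMF7 they were MYCL (0.0748), IRF1 (0.0978) and LURAP1L (0.0981). These likenesses over 6 libraries are a description and share the split between the groups.

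CD27-AS1, on the strand opposite CD27, was at 7.01, 8.44 and 8.24 TPM in HA-TAZ and 17.2, 10.7 and 10.8 TPM in the controls (log2 fold change -0.34, limma adjusted p = 0.178), far above CD27 itself. GPRC5D-AS1 had a log2 fold change of -0.19 (limma adjusted p = 0.501). Whether the quantification used strand is not given in the sources used here, so reads of CD27 or GPRC5D and of their antisense partners may not have been told apart.

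All 10 plasma cell marker genes, such as MZB1, XBP1 and IRF4, were above 1 TPM on average. Their summed level was 3224 to 3745 TPM in the HA-TAZ libraries and 4878 to 5552 TPM in the controls, most of it from IGJ, the antibody joining chain, at 2457 and 3792 TPM on average. After scaling 2 of the 10 were higher and 3 lower in HA-TAZ without overlap, beside 20.2% and 18.3% of all genes tested. Their median log2 fold change was -0.06, next to -0.03 for all genes. By limma 1 of the 10 passed, beside 7.29% of all genes tested. It was TXNDC5 (lower, log2 fold change -0.33, limma adjusted p = 0.0322). The lower sum is one of TPM as deposited, before scaling, and its part in the results for CD38 and FCRL5 was not tested. Of 8 B cell markers 7 were under 1 TPM, with sums of 9.35 to 10.3 and 10.8 to 11.9 TPM, mostly CR2. Of 9 T and NK cell markers 6 were under 1 TPM (sums 4.44 to 5.70 and 6.75 to 6.98 TPM), of 8 myeloid markers 7 (2.74 to 3.36 and 2.54 to 3.06 TPM), and of 10 stromal and epithelial markers 6 (7.47 to 9.34 and 10.2 to 13.6 TPM). S100A8 and S100A9 were listed at 0 in all libraries, and none of the markers of other cell types passed limma.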

How the data were processed

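The authors deposited TPM per transcript for 6 libraries, quantified with kallisto 0.46.0 and with GRCh37 as the genome build per the submitters' processing notes. A second deposited table of the authors, from sleuth 0.30.0 per the same notes, gives for 109487 transcripts an effect on the natural log scale with its SE, p-values and q-values, and other score columns that were not used; 105683 transcripts have no statistics in it. Estimated reads are the exponent of the mean in that deposited table less 0.5, taken as its offset.

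TPM was summed per Ensembl gene ID, divided by median-of-ratios factors from 21512 genes, and tested as log2(scaled TPM + 1) with limma 3.58.1 (R 4.3.3, intensity trend, two-sided, Benjamini-Hochberg over all genes) for genes with a mean of at least 1 TPM. Fold changes on this scale understate changes of low genes. TPM gives no read totals, so the depth per library is unknown. Counting error was not fitted, and the technical variance in the authors' deposited table was not used. Transcript shares were compared by exact permutation tests. Exon structures came from GENCODE release 29, which held 51 of the 55 transcripts, 24 in the same version, and promoters from RefSeq GRCh38.p14. No coordinate was converted.

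The genes and lists were chosen with earlier results of these data known. Named are all 10 antigens, transcripts of CD38 and SLAMF7 with a mean of at least 0.1 TPM, the top transcript of the others, per list the genes called (at most 4) and the most abundant one, and the 3 genes most like CD38 and SLAMF7. Alternatives were other scalings, pseudocounts (0.1), minimum levels (none, 5 TPM), limma without trend or with a robust prior, and each library left out. The fit of protein-coding genes only, and the alternatives for the lists and for CD47 shares, were chosen after seeing the data. The replicate block was not fitted.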

Additional observations from a re-analysis of the deposited data

How the results depend on the processing

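The number of antigens called, 3, stayed between 2 and 4 under the scalings, pseudocount, minimum levels, trend, prior and protein-coding alternatives, and ranged from 0 to 2 when a library was left out. Calls over all genes moved too, from 1652 of 22651 to 3329 of 22651 with TPM as deposited. They were 2746 of 11666 with protein-coding genes only and 2240 of 12613 with a minimum of 5 TPM. Without HA-TAZ 1 they fell to 118 of 22999, and without control b to 166 of 22469. The number of antigens called was 0 by limma without HA-TAZ 1, where 4 of the 8 had an unadjusted p under 0.05 beside 22.2% of all genes. It was also 0 without control b, where 5 did beside 26.1%. The log2 fold change ranged from -0.67 to -0.55 for CD38 and from 0.88 to 1.03 for SLAMF7 as libraries were left out, and over all 14 alternatives from -0.88 to -0.55 and from 0.70 to 1.12. CD48 turned to -0.30 with TPM as deposited, -0.0072 with upper quartile scaling and -0.072 with protein-coding genes only, and ran from -0.024 to 0.060 as libraries were left out. The share difference of CD38-201 ran from -3.32 to 2.64 percentage points (-0.645 with all libraries), and that of SLAMF7-203 from 0.906 to 20.7. Antigen transcripts called by limma numbered 2 with a minimum of 5 TPM and 0 whichever library was left out. Of the 8 transcripts with a q under 0.05 in the authors' deposited table, 4 have one under 0.01. List genes called numbered 9, 17 with protein-coding genes only, and 3 to 6 with a library left out.

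Of all genes 1652 were called, 3329 with TPM as deposited, 691 without a minimum level, 758 without the trend, 2746 among protein-coding genes only (51.9% higher in HA-TAZ), and 118 (without HA-TAZ 1) to 470 (without control c) with a library left out. These fits have fewer libraries; for the other alternatives the cause was not tested. With 3 libraries a group no exact permutation test can go below 0.1. Low antigens such as CD27 rest on few reads, and depth per library is unknown. For the CD27 transcript ENST00000541233.1 the mean in the authors' deposited table corresponds to about 5.92 estimated reads. No paired analysis was possible because the control columns carry a name that is in no label and could not be matched to numbered control samples, so the replicate block was not run.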

Other observations

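Ratios between antigens within a library do not depend on the scaling between libraries. The ratio of CD38 to SLAMF7 was 1.32, 1.64 and 1.23 in HA-TAZ 1, 2 and 3 and 4.09, 5.16 and 5.23 in control a, b and c. In each HA-TAZ library CD38 was thus closer to SLAMF7 than in any control. TNFRSF17 over SDC1 was 0.448, 0.473 and 0.432 against 0.634, 0.617 and 0.574, and CD48 over CD47 was 3.54, 3.54 and 3.38 against 4.70, 4.22 and 4.43. These show unequal change of the genes in a pair and not which of them changed. The 3 pairs were chosen after their values were seen, so these ratios are a description and no test is given for them.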
